A study of Homo sapiens with 6 samples.

Results

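The genes described here are factors that build the ribosome, with TMA16 among them, in MDA-MB-231 cells given an siRNA against ING2. These cells are a breast cancer line of mesenchymal character without the estrogen receptor. ING2 encodes a reader of methylated histone H3 in a SIN3 histone deacetylase complex. A gene was a member when its symbol began with UTP, NOP, NOL or RRP followed by a number, or was IMP3, IMP4, TSR1, TSR2, TSR3, TMA16, FBL, DKC1, NCL, NPM1, BOP1, PES1, WDR12 or BYSL. Only probe sets naming a single gene counted. This gave 48 members among 19777 measured genes. DKC1, BOP1, NOP56 and UTP14C were named only by probe sets that also name another gene, such as a small RNA encoded in an intron, and so were not members.

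The groups were 3 arrays from MDA-MB-231 cells transfected with a non-targeting siRNA and 3 from the same line transfected with an siRNA against ING2. A single ING2 siRNA is named, and RNA was collected at 4 days after transfection according to one label and at 3 days according to another. The labels do not say that replicates came from separate cultures, so p-values measure only the spread between these arrays, which may be technical. Bulk RNA was measured, in which fewer cells with a transcript and less transcript per cell cannot be told apart.

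Ribosomes are assembled in the nucleolus, where RNA polymerase I transcribes a long precursor of the ribosomal RNAs. A large particle called the small subunit processome folds and cuts the part that becomes the small subunit. Separate factors, among them the PES1, BOP1 and WDR12 complex, mature the part that becomes the large subunit. Box C/D and box H/ACA ribonucleoproteins methylate and pseudouridylate the RNA along the way. TMA16 is a small ribosome-associated protein found on precursors of the large subunit. Growing and cancer cells make many ribosomes, and MYC, which binds the sequence CACGTG with its partner MAX, is a known activator of this programme.

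That hexamer is shown first because it is a feature many members share and the choice of members did not use. RefSeq promoter windows of assembly GRCh38.p14, from 250 bases before to 50 bases after a gene's start, were found for 43 of the 48 members. CACGTG, which reads the same on both strands, lay in a window of 19 of these members (44.2%), against 10.8% of the 15309 measured genes with a window. By window, it was in 19 of the members' 50 (38.0%), against 7.23% of all 34943. Within 50 bases of the start it was found for 17 members (39.5%), against 4.41% of measured genes. Neither these shares nor those of the other motifs below were matched for intensity or base composition. The following stretches of 30 bases show TMA16 beside members of different roles, whose measured log2 changes differ in sign. They are written 5′ to 3′ on the gene's own strand with the hexamer in capitals.
TMA16: cttctcaggcgcCACGTGggattcggcccg
UTP18: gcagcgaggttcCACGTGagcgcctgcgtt
NOL8: gctccgttgggaCACGTGaccagaagttag
UTP20: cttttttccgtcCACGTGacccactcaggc
NOP10: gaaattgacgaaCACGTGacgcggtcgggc
NOP14: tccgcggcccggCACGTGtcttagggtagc
FBL: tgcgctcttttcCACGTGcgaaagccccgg
PES1: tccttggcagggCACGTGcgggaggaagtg
UTP4: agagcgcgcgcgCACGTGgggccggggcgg
NOL6: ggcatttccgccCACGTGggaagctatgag

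The TMA16 stretch lies at chr4:163494684-163494713 on the plus strand, and its hexamer begins at base 7 of the transcript. The FBL stretch lies at chr19:39846356-39846385 on the minus strand, also with the hexamer at base 7. The UTP4 stretch lies at chr16:69132621-69132650 on the plus strand, with the hexamer 16 bases before the start. The NOP10 stretch lies at chr15:34343130-34343159 on the minus strand, 11 bases before the start. The others lie at chr17:51260538-51260567 on the plus strand (UTP18), chr9:92325342-92325371 on the minus strand (NOL8), chr12:101280083-101280112 on the plus strand (UTP20), chr4:2963374-2963403 on the minus strand (NOP14), chr22:30591880-30591909 on the minus strand (PES1) and chr9:33473894-33473923 on the minus strand (NOL6). A match of letters is a description and not a measured binding site. CCGGAAG, the core of sites for ETS factors, searched on both strands and unable to overlap CACGTG, was found for 15 of the 43 members (34.9%), against 16.6% of measured genes. The palindromic motif of NRF1, of 10 bases, was found for 2 of the 43 members (4.65%) and for 408 of all 27167 genes with a window.

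Members with CACGTG did not share a direction after ING2 siRNA. Of the 19, 9 had a log2 change below 0 and 10 above, with a median of 0.01, and the 24 members with a window but without the hexamer had a median of -0.06 (14 below 0 and 10 above). Over all measured genes the medians were 0.03 with the hexamer and 0.06 without it. TMA16 and FBL, whose hexamers lie at the same distance from the start, had log2 changes of -1.18 and 0.11.

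The arrays were checked before the members. ING2 itself read 1324 to 1400 intensity units in controls and 161 to 188 units after ING2 siRNA, 12.5% of control (limma adjusted p = 1.85e-07). Median intensity per array was 75.7 to 77.2 units in controls and 78.4 to 81.5 after ING2 siRNA. VIM, CD44, AXL, CAV1 and LDHB, high in this line, lay at percentiles 96.2 to 99.6 of all genes by intensity. ESR1 (percentile 40.9), CDH1 (24.3) and PGR (5.50) were dim, while GATA3 (55.6) and ERBB3 (55.3) lay near the middle. The 10 measured markers of fibroblasts, blood and endothelial cells lay at percentiles 5.66 to 55.3, and their summed intensity was 1016 to 1065 units in controls and 1029 to 1067 after ING2 siRNA. Of those 10, DCN rose by 0.35 and LUM fell by 0.87 on the log2 scale (limma adjusted p = 0.0349 and 0.0205). The excess of the 3′ over the 5′ GAPDH control probe set was 0.21 ± 0.02 log2 units on control arrays and 0.32 ± 0.04 on ING2 siRNA arrays (SD, n = 3), without overlap. The part of these differences in the results below was not tested.

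Of the 48 members, TMA16 alone passed the threshold, an adjusted p under 0.05 by Benjamini-Hochberg over all 19777 genes in limma. It was 1 lower call and 0 higher, or 2.08% lower, against a background of 4.67% of all genes called lower and 3.62% called higher (8.29% in all). The members' count is not above the background in either direction. The median log2 change over the members was -0.01, with 26 below 0 and 22 above, and the median over all genes was 0.06. At an unadjusted p under 0.05, 13 members were lower and 3 higher (27.1% and 6.25%), against 13.6% and 19.4% of all genes. Of the 9889 genes above the median intensity, where 45 of the members lay, 2342 were lower and 1212 higher at that p.

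**Figure D1:**
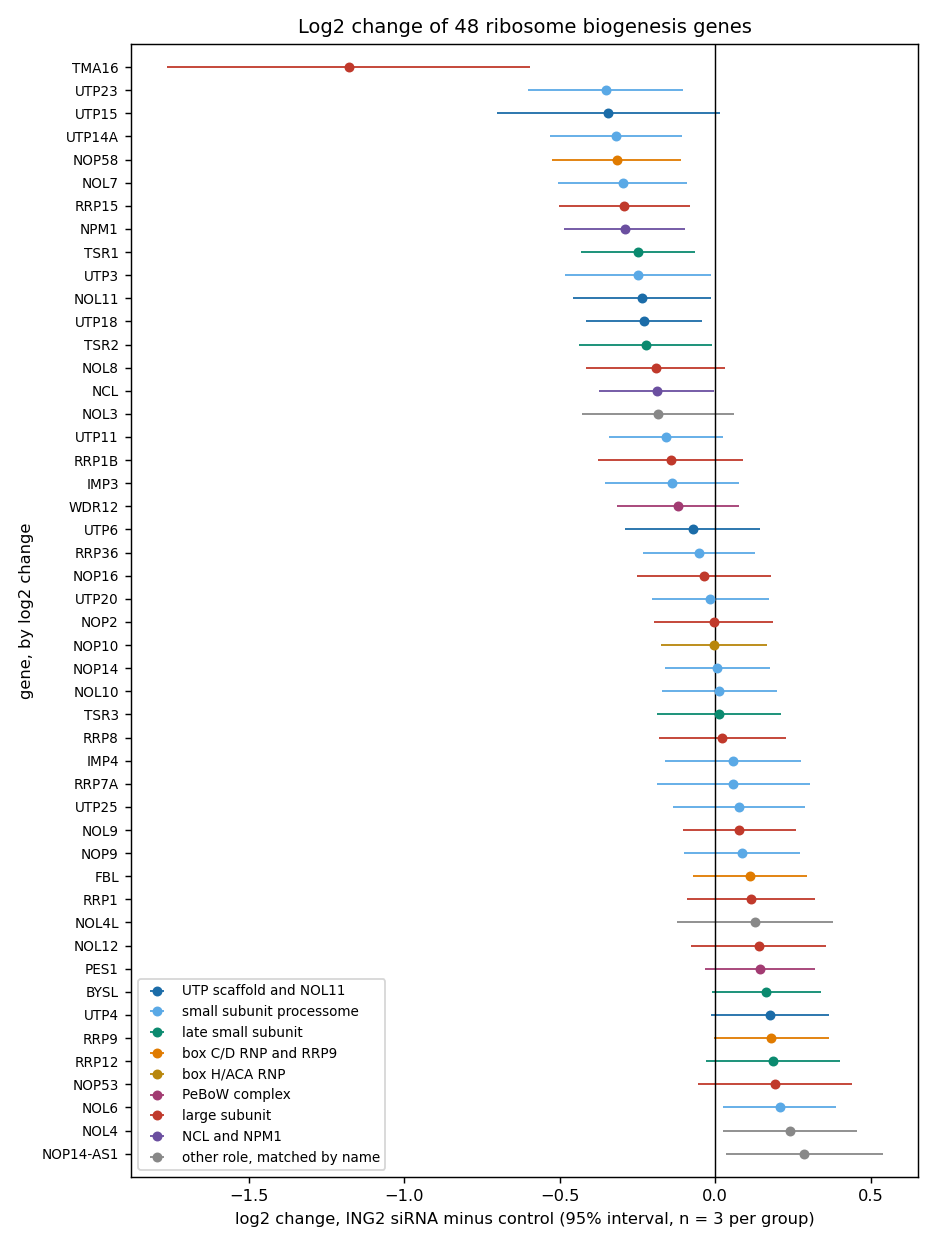
Log2 change of each of the 48 members, ING2 siRNA minus control (x axis), with its 95% interval from the limma fit (n = 3 per group), ordered by size and coloured by role. TMA16 stands at -1.18, and the other 47 lie between -0.35 and 0.29.

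TMA16 is read by 1 probe set, 218513_at. It gave 42.5, 71.5 and 90.9 intensity units in control replicates 1, 2 and 3, and 21.7, 38.1 and 28.8 units in ING2 siRNA replicates 1, 2 and 3. The groups did not overlap, but control replicate 1 lay close to ING2 siRNA replicate 2. The level fell to 44.1% of control, a log2 change of -1.18 (SE 0.26, 95% interval -1.76 to -0.60, n = 3 per group, limma adjusted p = 0.0329). By exact permutation of the 6 arrays (two-sided) p was 0.1, which is the lowest value possible with 3 in each group. TMA16 was included knowing that its fall was large, so this test is a description of these arrays and no independent support.

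Both the size and the spread of this gene were unusual. Its log2 change was the second lowest of all 19777 genes, after ING2, while by p-value it ranked 665. The SD was 0.56 log2 units in controls and 0.41 after ING2 siRNA, against medians of 0.10 in each group over the other 47 members. Its SE of 0.26 compares with a range of 0.08 to 0.16 for the other members, and 99.9% of the 1977 genes in its intensity decile had a smaller SE. TMA16 was also dim, at percentile 21.5 of genes by intensity, where the other members' median was percentile 78.6. Whether its level lies above the background of the array was not tested.

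**Figure D2:**
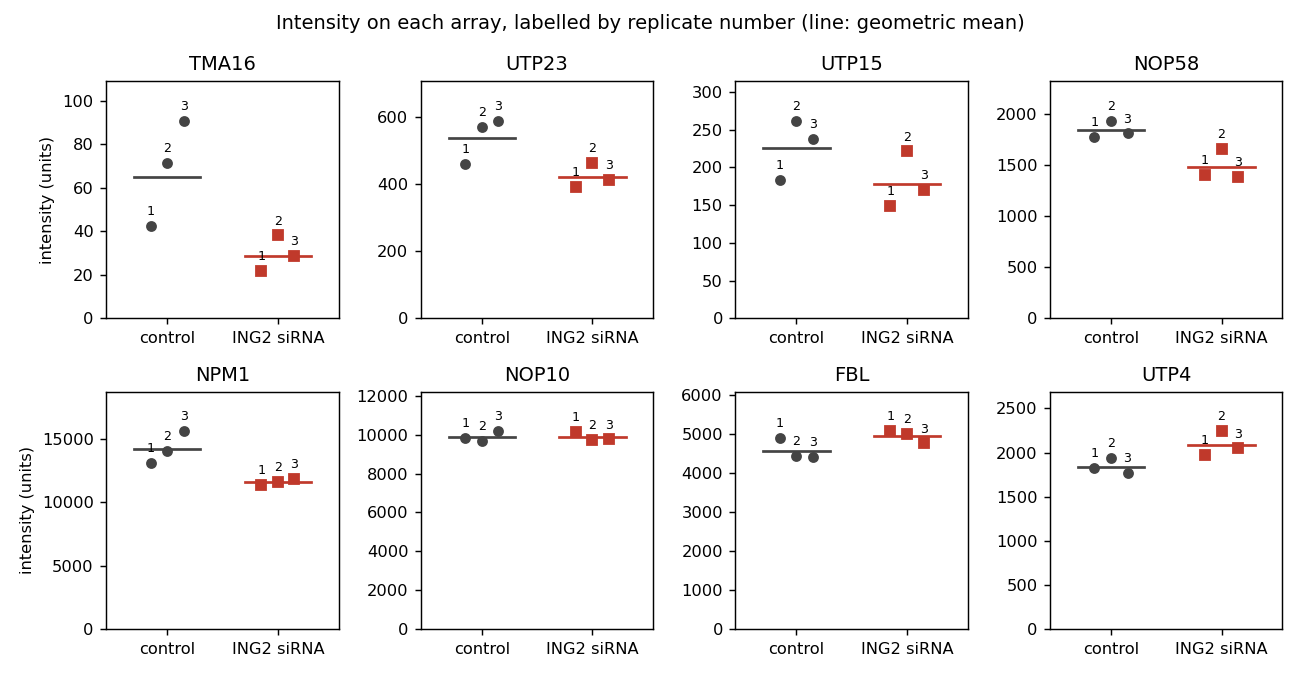
Intensity in units on a linear axis from 0 (y axis) for 8 members on each of the 6 arrays, control as circles and ING2 siRNA as squares, each point labelled with its replicate number and lines at the geometric mean. For TMA16 control replicate 1 (42.5) and ING2 siRNA replicate 2 (38.1) nearly meet, for UTP23 and UTP15 the groups overlap, and for NOP10 all 6 values lie between 9677 and 10185.

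The TMA16 call depended on single arrays. When each of the 6 arrays was left out in turn, its log2 change lay between -1.49 and -0.94. It passed without control replicate 1 (adjusted p = 0.0108) or without ING2 siRNA replicate 2 (0.0184), the pair of arrays on which the groups come closest. It did not pass without control replicate 2 (limma adjusted p = 0.108) or 3 (0.0991), or without ING2 siRNA replicate 1 (0.0949) or 3 (0.129). Over all genes the same 4 fits called 2 or 3 genes each. Rescaling the arrays by their medians, quantile normalization and cyclic loess gave -1.25, -1.27 and -1.31, each past the threshold.

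**Figure D3:**
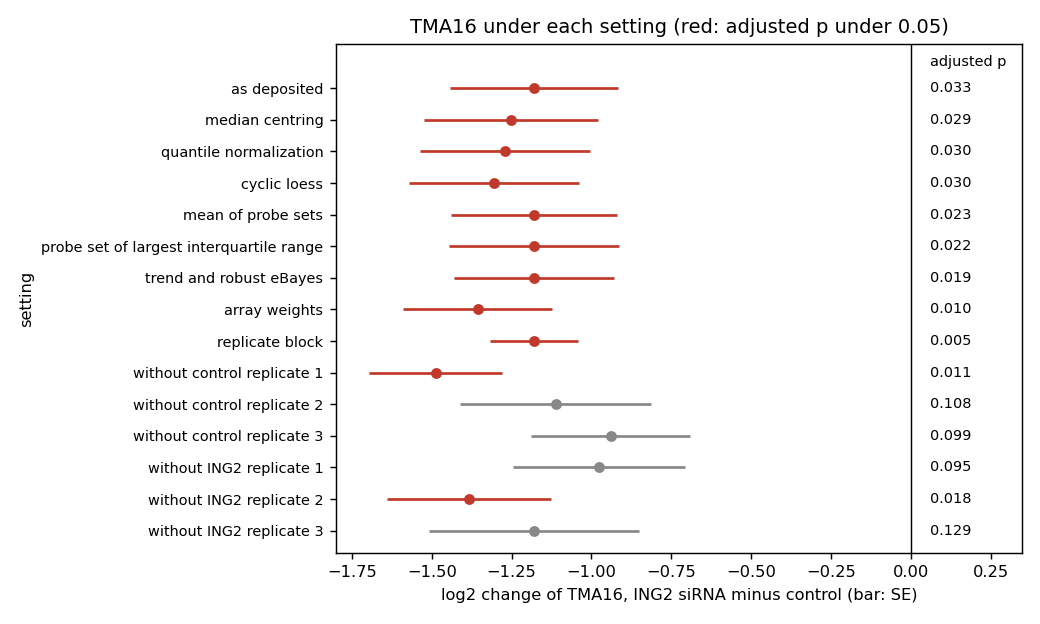
Log2 change of TMA16, ING2 siRNA minus control (x axis), under each setting (y axis), with bars of 1 SE and the limma adjusted p printed at the right. Points are red where the adjusted p is under 0.05, and the 4 grey points are fits without 1 array, with adjusted p from 0.0949 to 0.129.

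The scaffold of the small subunit processome is laid down on the precursor RNA by UTP proteins. UTP4, UTP15 and NOL11 belong to the part that also acts in ribosomal DNA transcription, and UTP6 and UTP18 to a second part. None of these 5 passed the threshold. UTP15 read 183, 262 and 238 units in controls and 149, 221 and 170 units with ING2 siRNA, giving a log2 change of -0.34 (SE 0.16, limma adjusted p = 0.166). Its groups overlapped, and in both groups the lowest array was replicate 1 and the highest replicate 2. UTP4 read 1824, 1938 and 1766 units in controls and 1969, 2241 and 2046 units with ING2 siRNA, giving a log2 change of 0.18 (SE 0.09, limma adjusted p = 0.175). All 3 of its ING2 siRNA values were above all 3 controls. UTP18 (-0.23), NOL11 (-0.24) and UTP6 (-0.07) completed the group.

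Among the 15 other members of the processome, 8 had values below 0 and 7 above, with a median of -0.02, and none passed. The lowest was UTP23, which has the fold of an RNA-cutting enzyme. Its main probe set read 459, 571 and 589 units in controls and 390, 463 and 412 units with ING2 siRNA, giving a log2 change of -0.35 (SE 0.11, limma adjusted p = 0.0690). Control replicate 1 lay just under ING2 siRNA replicate 2. UTP14A, an activator of an RNA helicase, read 675, 776 and 676 units against 569, 613 and 522 units, a log2 change of -0.32 (SE 0.09, limma adjusted p = 0.0596) with no overlap. A second, dim probe set of UTP14A, 221098_x_at, had 0.22, also without overlap (limma p adjusted over all probe sets = 0.225). UTP14A has a close copy, UTP14C, and its values are therefore uncertain. The highest was NOL6, which read 286, 295 and 266 units against 309, 334 and 333 units, a log2 change of 0.21 (SE 0.08, limma adjusted p = 0.116). NOL7 (-0.30), UTP3 (-0.25), UTP11 (-0.16), IMP3 (-0.14) and RRP36 (-0.05) lay on the lower side. NOP14 (0.01), NOL10 (0.01), IMP4 (0.06), RRP7A (0.06, with a close pseudogene copy), UTP25 (0.08) and NOP9 (0.09) lay near 0, as did UTP20 (-0.02). The value of UTP25 depended on the probe set, since its other 3 read -0.20, -0.29 and -0.30.

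Factors that finish the small subunit were on both sides of 0. TSR1, a factor of late small subunit precursors, read 997, 1113 and 980 units in controls and 871, 863 and 861 units with ING2 siRNA, giving a log2 change of -0.25 (SE 0.08, limma adjusted p = 0.0756). The treated arrays were nearly equal and below every control. RRP12, which acts in nuclear export of subunits, read 287, 239 and 233 units against 298, 277 and 283 units, a log2 change of 0.18 (SE 0.10, limma adjusted p = 0.207). TSR2, a chaperone for a ribosomal protein, had -0.22, the RNA-modifying enzyme TSR3 had 0.01 and BYSL had 0.16.

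Of the ribonucleoprotein subunits that serve RNA modification or processing, none passed. NOP58, the core scaffold of box C/D particles, read 1780, 1938 and 1813 units in controls and 1405, 1660 and 1387 units with ING2 siRNA, giving a log2 change of -0.32 (SE 0.09) with no overlap. It had the smallest adjusted p after TMA16 (limma, 0.0591). FBL, the methyltransferase of the same particles, read 4908, 4435 and 4417 units against 5076, 5008 and 4763 units, a log2 change of 0.11 (SE 0.08, limma adjusted p = 0.359). RRP9, specific to the U3 particle, had 0.18. NOP10 of the box H/ACA particles read 9836, 9677 and 10185 units against 10135, 9723 and 9764 units, a log2 change of -0.00 with a 95% interval from -0.17 to 0.17.

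For the large subunit, WDR12 and PES1 act in one complex with BOP1. WDR12 read 1828, 2036 and 1936 units in controls and 1842, 1869 and 1634 units with ING2 siRNA, giving a log2 change of -0.12 (SE 0.09, limma adjusted p = 0.357). PES1 read 747, 731 and 700 units against 839, 803 and 765 units, a log2 change of 0.14 (SE 0.08, limma adjusted p = 0.232), with every treated array above every control. Among the 11 other factors of this subunit, TMA16 was followed by RRP15, with 866, 988 and 956 units against 726, 847 and 724 units. Its log2 change was -0.29 (SE 0.10, limma adjusted p = 0.0720), with no overlap. The highest was NOP53, which links precursors to the RNA exosome, with 234, 220 and 197 units against 272, 213 and 261 units. Its log2 change was 0.19 (SE 0.11, limma adjusted p = 0.248), and ING2 siRNA replicate 2 lay inside the range of the controls. The RNA methyltransferases NOP2 (-0.01) and RRP8 (0.02), the RNA kinase NOL9 (0.08), NOP16 (-0.04), NOL12 (0.14), RRP1 (0.11), its paralog RRP1B (-0.14) and NOL8 (-0.19) did not pass. The value of NOP16 depended on the probe set, since 203023_at read -0.36 (limma p adjusted over all probe sets = 0.0557), 213833_x_at 0.09 and 209327_s_at 0.18.

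NPM1 and NCL, the abundant proteins of the nucleolus, were among the brightest genes of the arrays. NPM1 read 13136, 14047 and 15622 units in controls and 11388, 11641 and 11870 units with ING2 siRNA, giving a log2 change of -0.29 (SE 0.09, limma adjusted p = 0.0617). NCL read 4912, 5575 and 5418 units against 4563, 4775 and 4597 units, a log2 change of -0.19 (SE 0.08, limma adjusted p = 0.143). Neither overlapped between groups, and neither passed. A second NPM1 probe set of nearly the same brightness, 221923_s_at, read 9840, 9824 and 10176 units against 10003, 10007 and 10049 units, a value of 0.01 with overlapping groups, and 221691_x_at had -0.29.

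The name rule also took in 4 genes that are not known as ribosome assembly factors. NOP14-AS1, an antisense transcript at NOP14, had the highest value of all members, with 111, 107 and 137 units in controls and 155, 129 and 149 units after ING2 siRNA (log2 change 0.29, SE 0.11, limma adjusted p = 0.114). NOL3, an inhibitor of apoptosis, had the lowest of the 4 (-0.18), and NOL4L had 0.13. NOL4 was near the floor of the arrays, at 13.5 to 16.2 units against 16.6 to 19.1 units (0.24). Without these 4 genes the count was still 1 lower and 0 higher of 44, and the median was -0.03.

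For most members the intervals bound the change of the probe set used, and not of the gene's other probe sets. The 95% interval, which is not adjusted for the number of genes, lay within 1.5-fold in either direction for 45 of 48 members. The exceptions were TMA16, UTP23 and UTP15. Among the 45, UTP18, NOL7, RRP12 and NOL4L each had another probe set that passed when tested on its own (-0.77, -0.57, 0.48 and 0.43). Each of these lay outside the gene's own 95% interval, and only that of UTP18 lay beyond 1.5-fold. Probe sets that did not pass also lay outside the interval of their gene, among them some of UTP14A (0.22), UTP25 (-0.30) and NPM1 (0.01). Groups did not overlap in 13 members on the lower side and 6 on the higher side (27.1% and 12.5%), against 13.8% and 22.8% of all genes. The members were bright, 45 of them above the median intensity, and brighter genes as a class lay lower in these data. Among genes above the median intensity, groups did not overlap on the lower side in 24.2% of genes and in 26.7% of those 45 members, and on the higher side in 17.0% and 11.1%. In that range 8.25% of genes were called lower, and 0 of the 45 members.

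How many members passed varied with the setting, and nearly all of the calls were falls, so each share is set beside the lower calls of all genes and of genes above the median intensity. With arrays centred on their medians 6 of 48 members passed, all lower (12.5%, against 7.31% of all genes), and UTP14A, NOP58, NOL7, NPM1 and TSR1 joined TMA16. In that setting 5 of the 45 bright members were lower (11.1%), against 12.8% of bright genes. After quantile normalization TMA16 was lower and UTP4 higher, against 3.16% of all genes lower and 4.81% higher, and after cyclic loess TMA16 alone was lower, against 3.45%. Of bright genes 4.53% and 5.01% were lower in those settings, and 0 of the 45 bright members.

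The split of all genes by direction turned with the scaling, from 924 lower and 716 higher as deposited to 1445 lower and 263 higher (1.33%) with median centring. It was 624 lower and 951 higher after quantile normalization and 682 lower and 446 higher (2.26%) after cyclic loess.

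Settings that kept the scaling gave more member falls than the share of all genes in several cases and fewer than that of bright genes in each. With array weights 8 members were lower (16.7%, against 9.76% of all genes), and 7 of the 45 bright ones (15.6%, against 17.1% of bright genes). With a replicate block 8 were lower (16.7% against 9.50%), and 7 of the bright ones (15.6% against 16.4%). With the mean of all probe sets of a gene 6 were lower (12.5% against 7.03%), and 5 of the bright ones (11.1% against 12.8%). With its most variable probe set 6 were lower (12.5% against 9.88%) and 2 higher (4.17% against 6.61%), and 5 of the bright ones were lower (11.1% against 18.1%). An intensity trend in the variance model gave 5 lower (10.4% against 7.26%), with 4 of the bright ones (8.89% against 13.0%). Without the dimmest genes 3 of the 46 members kept in the fit were lower (6.52% against 8.44%), namely UTP14A, NOP58 and NPM1, all bright (6.67% against 11.4%).

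The fits without 1 array varied most. Leaving out ING2 siRNA replicate 2 gave 6 lower members (12.5% against 6.83%), with 5 of the bright ones (11.1% against 11.9%). Leaving out control replicate 1 gave 3 (6.25% against 8.25%), with 2 of the bright ones (4.44% against 14.2%). The other 4 fits gave 0 members, against 0.0101% to 0.0152% of all genes. At thresholds of 0.01 and 0.1 the counts of lower members were 0 and 9 (18.8%), against 0.0101% and 10.2% of all genes. The shares of genes above the median intensity were not computed at these thresholds, so no excess of members can be read from them.

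**Figure D4:**
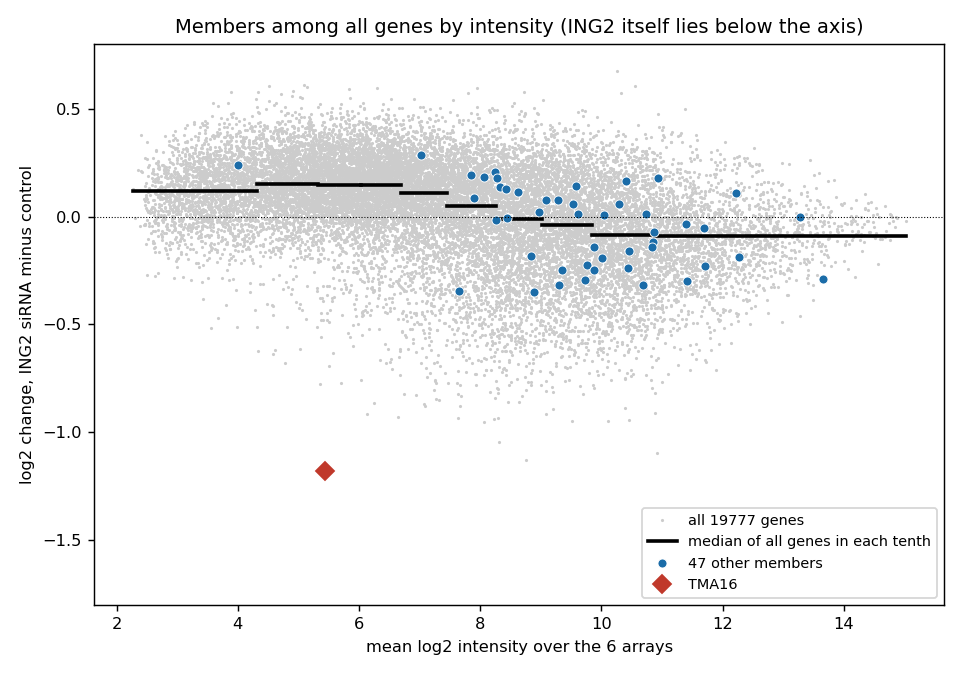
Log2 change, ING2 siRNA minus control (y axis), against mean log2 intensity over the 6 arrays (x axis) for all 19777 genes (grey), the 47 other members (blue) and TMA16 (red diamond), with black lines at the median change of all genes in each intensity decile. The black lines run from 0.15 in dim genes to -0.09 in the brightest, the blue points scatter about them, and TMA16 lies far below.

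Relative to the median of all genes in the same intensity decile, 21 members lay lower and 27 higher, with a median difference of 0.04. The direction of the members' median followed the scaling of the arrays. It was -0.08 with each array centred on its median (32 members below 0), 0.08 after quantile normalization (19 below 0) and 0.06 after cyclic loess (20 below 0), and over all genes the same medians were -0.01, 0.06 and 0.03. No direction of the members as a group is therefore given.

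Probe sets of the same gene often disagreed. Of the 32 members with several probe sets, 14 had all of them on the same side of 0 and 18 had them on both sides. Testing each of the 109 member probe sets on its own, with p adjusted over 54613 probe sets, 5 fell and 2 rose (4.59% and 1.83%), against 3.64% and 1.64% of all probe sets. UTP23 held 2 of the falls: 238561_s_at read 70.3, 65.8 and 60.4 units in controls and 37.7, 39.7 and 46.5 units with ING2 siRNA, giving a log2 change of -0.67 (SE 0.11, limma adjusted p = 0.0131). Its probe set 238562_at read 38.0, 34.2 and 42.1 units against 24.2, 27.8 and 20.0 units, also a log2 change of -0.67 (SE 0.13, limma adjusted p = 0.0256). Neither overlapped between groups, and both passed after cyclic loess (adjusted p = 0.00618 and 0.0156). The remaining UTP23 probe set, 227402_s_at, had a value of -0.01.

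UTP18 showed a similar split. Its bright probe set 203721_s_at had -0.23, whereas the dimmer 222038_s_at read 228, 197 and 194 units in controls and 142, 140 and 88.5 units with ING2 siRNA, giving a log2 change of -0.77 with an SE of 0.17 (limma adjusted p = 0.0368). For NOL7, 210097_s_at fell by 0.57 (SE 0.11, limma adjusted p = 0.0251), while 202882_x_at had -0.30 and 202881_x_at 0.09. The rises were in dim probe sets of RRP12 (216360_x_at, 0.48) and NOL4L (1558679_at, 0.43). The other probe sets ran from -0.25 to 0.32 for RRP12 and from -0.13 to 0.23 for NOL4L. Neither rise passed after cyclic loess (limma adjusted p = 0.0652 and 0.0845). Which transcripts the discordant probe sets read was not tested.

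**Figure D5:**
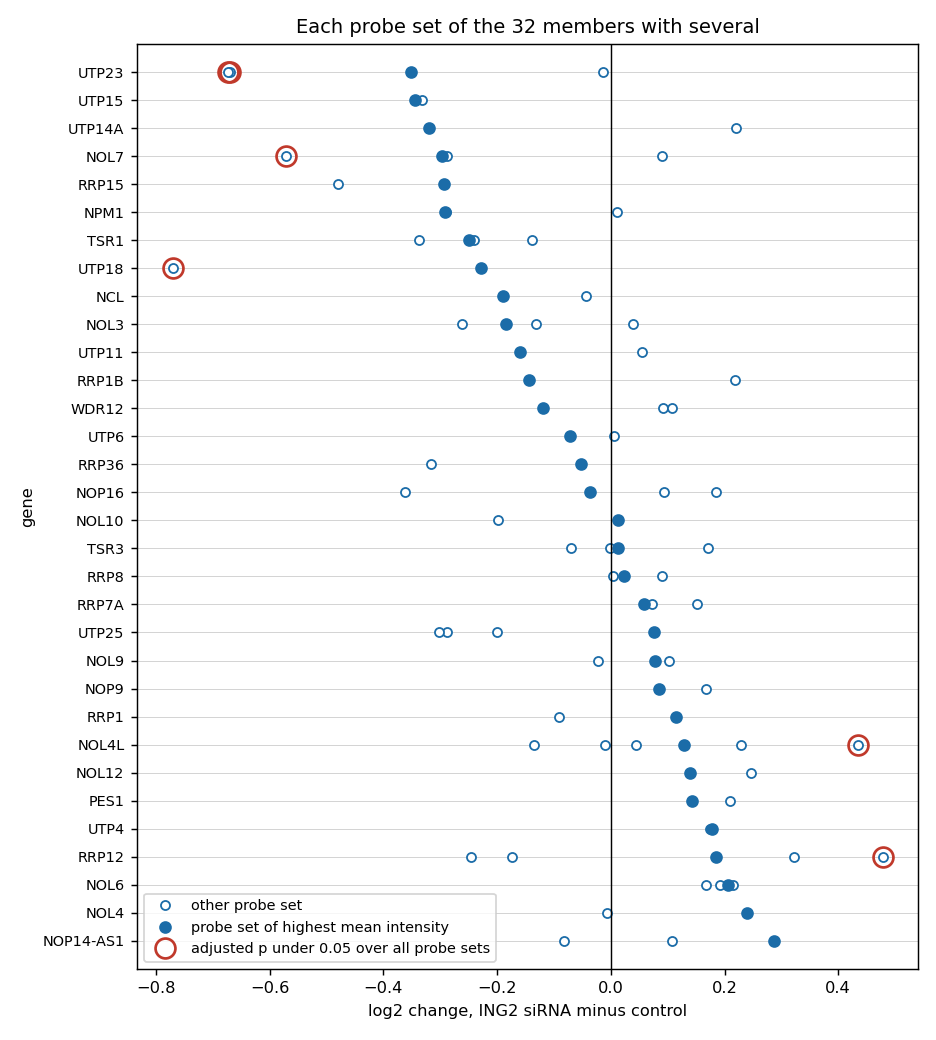
Log2 change, ING2 siRNA minus control (x axis), of every probe set of the 32 members that have several (y axis), with the probe set of highest mean intensity filled, the others open, and a red ring where the limma adjusted p over all probe sets is under 0.05. The ringed falls belong to UTP23, UTP18 and NOL7 and the ringed rises to RRP12 and NOL4L, and in each of these genes another probe set lies closer to 0 or on the other side of it.

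The 16 probe sets that name a gene of this kind together with another gene gave no call, with limma p adjusted over all probe sets. The lowest adjusted p, 0.0562, was that of 228179_at, named for both UTP4 and HAS3. It read 87.9, 81.6 and 82.3 units in controls and 113, 97.3 and 114 units with ING2 siRNA, without overlap (0.36, SE 0.09). A probe set shared by UTP14A, UTP14C and ALG11 had -0.25, those shared by RRP7A and its pseudogene RRP7BP had 0.18 and 0.02, those shared by NOP53 and SNORD23 had 0.07 and 0.04, and one shared by NOL12 and TRIOBP had -0.00. For genes with no probe set of their own, DKC1, the pseudouridine synthase of box H/ACA particles, had -0.33, -0.27 and 0.01. NOP56, the partner of NOP58 in box C/D particles, had -0.07 and 0.04, and BOP1 had 0.14 and -0.08.

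Genes of the same pathway outside the rule were compared in 6 lists. Of 179 measured genes 12 fell and 0 rose in limma at the same threshold (6.70% lower, against 4.67% of all genes and 8.25% of genes above the median intensity), with a median of -0.07. Calls on the higher side appeared under other scalings, with 7 lower and 5 higher after quantile normalization and 8 lower and 2 higher after cyclic loess. By list, the share called lower ran from 1.92% (ribosomal proteins) to 18.8% (RNA exosome and nucleases). Each list held few calls, so no fall of a list as a whole is read from these shares. In the small subunit processome list 1 of 35 fell: ESF1, which is needed for processing of the precursor, read 339, 241 and 230 units in controls and 148, 153 and 163 units after ING2 siRNA. Its log2 change was -0.78 (SE 0.14, limma adjusted p = 0.0217), the groups stood well apart, and a second probe set had -0.72. In the large subunit list 3 of 42 fell: RSL24D1 by 0.51, PAK1IP1 by 0.45 and the GTPase GTPBP4 by 0.40 on the log2 scale. In the list of other small nucleolar particle factors 1 of 15 fell, the box C/D assembly factor ZNHIT6 (-0.33).

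Among 20 genes of RNA polymerase I and its initiation factors 3 fell and 0 rose. RRN3, the initiation factor that recruits the polymerase, read 283, 331 and 404 units in controls and 208, 246 and 213 units with ING2 siRNA, giving a log2 change of -0.60 (SE 0.13, limma adjusted p = 0.0311). TAF1A, a subunit of the promoter selectivity factor, fell by 0.59 (SE 0.13, limma adjusted p = 0.0317), and POLR2K, a subunit shared by all nuclear RNA polymerases, fell by 0.43. TAF1C (0.31), POLR1G (0.26) and POLR1A (0.22) had the highest values of this list and did not pass (limma adjusted p = 0.0638, 0.0754 and 0.109). Of the 20 genes 16 lay below 0, and 11 lay below and 9 above the median change of their intensity decile. In the list of the RNA exosome and nucleases 3 of 16 fell: the exosome cofactor C1D by 0.59, the nuclease XRN2 by 0.44 and EXOSC8 by 0.33. Of 52 cytosolic ribosomal proteins, RPS25 fell by 0.39 on the log2 scale (limma adjusted p = 0.0484). Although 46 of the 52 had a value below 0 (88.5%), against 38.3% of all genes and 57.5% of genes above the median intensity, 34 of the 52 lay above and 18 below the median change of genes in their intensity decile. Ribosomal protein genes have many near-identical pseudogenes and were among the brightest genes, so these values are uncertain. After cyclic loess 8 of the 12 genes passed, and EXOSC8 (limma adjusted p = 0.0952), RPS25 (0.102), GTPBP4 (0.0678) and ZNHIT6 (0.0830) did not. Each of the 12 passed in 2 of these 6 fits without 1 array, and 0 of the 179 passed when control replicate 2 or 3, or replicate 1 or 3 of the ING2 siRNA arrays, was left out.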

How the data were processed

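Probe set values of 6 one-colour 3′ expression arrays were used. The authors deposited intensity values on a linear scale (4.05 to 33803). The submitters' processing notes name RMA and R 2.12. The sources used here do not state the step that made linear values, the background correction or any filter. Of 54675 probe sets, 62 control probe sets were left out, 41091 named 1 gene, 1801 several and 11721 none. Names came from a platform annotation of 2016, with 19735 of 19777 gene identifiers found in a RefSeq table. Each gene was read by its probe set of highest mean log2 intensity. Groups were compared on log2 values, without a pseudocount or filter, with limma 3.58.1 in R 4.3.3 (lmFit and eBayes), Benjamini-Hochberg adjusted over all genes.

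The members, the gene lists and the naming rule were chosen with earlier results of these data known. Named were TMA16, ING2, members past the threshold, the highest and lowest member of each role, members with discordant probe sets or close copies, and list genes past the threshold; other members were added to account for all 48. Motifs were chosen after the values were seen. Tested on simulated data for this comparison (19777 genes), the fit recovered 51% of 100 genes changed by 0.5 and 91% of 100 changed by 1 on the log2 scale, with 5 unchanged genes called. The simulated noise was independent between arrays, only 200 genes changed, and no trend with intensity or difference in scaling was included. These rates may therefore not hold for the real arrays. The number of arrays limits precision. Alternatives covered scaling, a dim filter (percentile 25), the probe set rule, the variance model, array weights, a replicate block, thresholds and leaving out each array.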

Additional observations from a re-analysis of the deposited data

How the results depend on the processing

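The count of members past the threshold (1, TMA16) depended on the setting, and each added call was a fall except where stated. It was 6 with arrays centred on their medians, 2 after quantile normalization (1 a rise, UTP4), 3 without dim genes (a filter that removes TMA16 itself), 6 with averaged probe sets, 8 with each gene's most variable probe set by interquartile range (2 of them rises, RRP12 and NOL4L), 5 with an intensity trend and robust eBayes, 8 with array weights, 0 at a threshold of 0.01, 9 at 0.1 and 7 of 109 probe sets tested singly (2 of them rises). NOP58 passed in 7 of 16 fits. All genes called numbered 2620 with averaged probe sets, 3260 with the most variable one and 3858 with array weights, against 1640, and genes called in the 6 pathway lists 23, 33 and 24, and 19 with the intensity trend, against 12. In the lists 2 of the 23, 5 of the 33, 3 of the 24 and 1 of the 19 were rises. Whether the replicate numbers pair the arrays was not settled. Correlations of deviations were 0.26, 0.29 and -0.02 for equal numbers 1, 2 and 3, and -0.31 to 0.10 for unequal numbers. With a replicate block 8 members, 25 list genes (2 of them rises) and 3508 genes passed, and TMA16 had adjusted p = 0.00544 in limma.

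Without 1 array, calls ranged from 0 to 6 among members, 0 to 19 in the lists and 2 to 2613 over all genes, and TMA16 from -1.49 to -0.94. The member median was -0.0814 with median centring, 0.0836 after quantile normalization and 0.0615 after cyclic loess. Values near 0 changed sign: NOP10 after quantile normalization (0.0833) and cyclic loess (0.113), and its values without 1 array ran from -0.0226 to 0.0171, and WDR12 after quantile normalization (0.0142), with averaged probe sets (0.0267) and with the most variable one (0.108). Annotated and current symbols gave the same members. ING2 passed in every fit run. TMA16 is a dim probe set, and its signal over background was not measured.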
